A study of Mus musculus with 24 samples.

Results

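Glial gap junction and pannexin genes were followed in oligodendrocytes (OLs) and in whole spinal cord tissue of mice with a contusive spinal cord injury (SCI). The 5 genes Gjc3, Gjb1, Gja1, Gjb6 and Panx1 were chosen by name, from 21965 genes counted and 17167 genes tested, and all 5 passed the filter on low counts. All mice were labelled as females and were of an OL-Ribotag line. In this line tamoxifen activates a Cre recombinase expressed in mature OLs that adds an HA tag to the ribosomal protein RPL22. Ribosome-bound mRNA of mature OLs (the OL translatome) can then be purified with an anti-HA antibody. Per the labels, mice were 10 to 12 weeks old when they received a 50 kdyn contusion at the T9 level with the IH impactor, and tissue spanning the lesion was taken at 2, 10 or 42 days post-injury (dpi). The methods of the study give a younger range for the age at injury. Naive mice had no injury, and like the injured mice they had been given tamoxifen. According to the methods of the study, naive tissue was collected on the same day as that of dpi 42, so dpi 2 and dpi 10 tissue was taken sooner after tamoxifen. Tissue of 2 mice was pooled, with 3 pools in a group, and the lysate of a pool was split into 1 OL library and 1 total RNA library, 24 libraries in all. This Cre is also active in Schwann cells, and the paper states that the samples may hold pieces of nerve root. An OL library can therefore hold Schwann cell RNA as well.

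Gap junctions are channels that join the cytoplasm of neighboring cells. Each cell contributes a ring of connexin proteins, and in central white matter OLs and astrocytes are coupled through pairs of unlike connexins, a network that helps to take up potassium and to share metabolites along myelinated axons. Gjb1 encodes CX32, which lies in OLs and their myelin and, in peripheral nerve, in Schwann cells. Gjc3 encodes CX29, which lies in the OL membrane next to the axon and is not known to form junctions between OLs and astrocytes. Gja1 (CX43) and Gjb6 (CX30) are the astrocyte connexins, which pair with those of OLs. Panx1 encodes pannexin 1, a channel of the plasma membrane that opens to the outside of the cell and releases ATP.

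The members lie on separate chromosomes and no other annotated gene overlaps them. On GRCm38, Gjc3 (ENSMUSG00000056966) is at chr5:137953461-137963098 on the minus strand, Gjb1 (ENSMUSG00000047797) at chrX:101376378-101385629 on the plus strand, Gja1 (ENSMUSG00000050953) at chr10:56377330-56402513 on the plus strand, Gjb6 (ENSMUSG00000040055) at chr14:57123303-57133611 on the minus strand, and Panx1 (ENSMUSG00000031934) at chr9:15002128-15045478 on the minus strand. Their exons cover 4356, 1707, 10257, 2674 and 6030 bases, respectively. The 250 bases before the transcription start, from RefSeq on GRCm38.p6 and written 5′ to 3′ on the strand of the gene, are shown because the OL connexins, the astrocyte connexins and Panx1 had unlike patterns in the libraries. RefSeq listed 1 start for each gene except Gjb1, which has 4, and the window shown for Gjb1 is that of the start nearest to the 3′ end of the gene. Counts were made per gene, so the 4 starts of Gjb1 cannot be told apart. Capitals mark matches, on either strand, to a SOX core (ACAANG), an AP-1 site (TGANTCA), a GC box (GGGCGG) or a TATA box (TATAAA). SOX proteins include SOX10, a regulator of OL genes.
Gjc3, chr5:137963099-137963348: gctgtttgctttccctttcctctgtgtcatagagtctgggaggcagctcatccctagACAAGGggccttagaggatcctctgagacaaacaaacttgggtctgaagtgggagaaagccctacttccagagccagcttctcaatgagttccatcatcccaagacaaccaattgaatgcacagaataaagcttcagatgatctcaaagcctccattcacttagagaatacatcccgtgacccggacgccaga
Gjb1, chrX:101383482-101383731: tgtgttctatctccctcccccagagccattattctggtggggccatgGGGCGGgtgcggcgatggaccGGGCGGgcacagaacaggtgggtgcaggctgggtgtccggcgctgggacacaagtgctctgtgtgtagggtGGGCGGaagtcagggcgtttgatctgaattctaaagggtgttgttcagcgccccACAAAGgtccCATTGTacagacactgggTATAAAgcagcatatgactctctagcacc
Gja1, chr10:56377050-56377299: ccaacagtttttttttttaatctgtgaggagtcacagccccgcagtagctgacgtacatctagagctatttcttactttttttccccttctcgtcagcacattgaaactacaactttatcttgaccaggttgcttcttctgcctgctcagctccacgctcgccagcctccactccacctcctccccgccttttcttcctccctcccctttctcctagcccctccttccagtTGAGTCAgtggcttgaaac
Gjb6, chr14:57133612-57133861: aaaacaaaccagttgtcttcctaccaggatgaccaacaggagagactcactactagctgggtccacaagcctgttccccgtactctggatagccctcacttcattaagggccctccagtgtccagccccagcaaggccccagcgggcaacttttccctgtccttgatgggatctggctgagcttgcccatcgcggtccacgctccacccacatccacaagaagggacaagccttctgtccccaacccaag
Panx1, chr9:15045479-15045728: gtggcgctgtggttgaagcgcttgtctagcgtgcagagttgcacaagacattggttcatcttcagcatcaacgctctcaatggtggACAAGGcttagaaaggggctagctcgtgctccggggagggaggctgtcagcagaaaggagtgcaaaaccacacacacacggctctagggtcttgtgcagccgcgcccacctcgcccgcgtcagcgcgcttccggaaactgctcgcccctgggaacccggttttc
The SOX core stands 193 bases before the start of Gjc3 and 164 bases before that of Panx1. The Gjb1 window shown holds SOX cores beginning 57 and 47 bases before the start on opposite strands, GC boxes at 203, 182 and 111 bases and a TATA box at 29 bases. It holds the most matches of the 4 Gjb1 windows. Numbered from the 5′ end, start 1 has 1 SOX core, 176 bases before it, and starts 2 and 3 have no match. The Gja1 window holds an AP-1 match 19 bases before the start, and the Gjb6 window holds no match to any of the motifs. Of the 32851 windows of this length in the table, 36.3% hold the SOX core, 6.75% the AP-1 site, 32.7% the GC box and 12.4% the TATA box, so SOX cores and GC boxes are common. A match describes letters in the window only.

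Libraries held 25840127 to 32987841 counts (median 29062636), and 3 counts, the floor used for a gene near zero, corresponded to 0.084 to 0.127 CPM. A CPM value is the count of a gene relative to the library total, scaled by the trimmed mean of M-values (TMM), and all levels and differences below are on that scale. The labelled cell type had its defining markers: the summed level of 10 OL markers was 102302 to 171294 CPM in OL libraries and 20232 to 29286 CPM in total RNA, and 10 of 10 were OL-enriched in each group. Markers of other cells were unevenly present. In 5 OL libraries (naive pool 3, dpi 2 pool 3, dpi 10 pool 2, dpi 42 pools 1 and 2) the sum of 10 astrocyte markers was 11256 to 19829 CPM, against 4731 to 6824 CPM in the other 7 and 9376 to 12621 CPM in total RNA. This sum is not a measure of astrocyte RNA alone, since 1 of the 10 was itself OL-enriched in each group. Kcnj10 made up much of it in the other 7, at 1784 to 2729 CPM, against 1688 to 3579 CPM in the 5. Schwann cell markers summed to 1.89, 1.82 and 642 CPM in the naive OL libraries and to 231 to 1556 CPM in OL libraries after SCI, so that naive pool 3 stood apart on both lists. In dpi 2 pool 2, both libraries held 2414 to 2604 counts of 4 Y-linked genes, against at most 13 in the other 22 libraries, although all mice are labelled as females. For dpi 42 pool 1 the description of each library goes against its title, and the description was followed. The OL marker sums of the dpi 42 libraries, 112229 to 147228 CPM in those called OL and 22182 to 24542 CPM in those called total RNA, go with the descriptions.

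Gjb1 and Gjc3 stood out from the rest as OL genes in each of the groups, but after SCI Gjc3 fell and Gjb1 did not pass the test. Gjc3 was at 563, 581 and 507 CPM in the naive OL libraries, at 260, 236 and 184 CPM on dpi 2, at 374, 353 and 321 CPM on dpi 10, and at 214, 251 and 291 CPM on dpi 42 (pools 1, 2 and 3). The 9 libraries after SCI were all below the 3 naive ones, and those of dpi 10 were above both other times. For Gjb1 the OL libraries were at 986, 1080 and 757 CPM in naive tissue, 1178, 1127 and 893 CPM on dpi 2, 1055, 1021 and 1053 CPM on dpi 10, and 916, 937 and 1152 CPM on dpi 42. All 4 groups of Gjb1 overlapped. In total RNA Gjc3 was at 151, 137 and 141 CPM in naive tissue, 79.6, 72.2 and 70.0 CPM on dpi 2, 109, 115 and 111 CPM on dpi 10, and 98.6, 91.6 and 93.5 CPM on dpi 42. This is the order of times seen in the OL libraries, with no overlap between any of the 4 groups. Gjb1 in total RNA was at 138, 128 and 108 CPM in naive tissue, 155, 143 and 137 CPM on dpi 2, 125, 120 and 121 CPM on dpi 10 and 126, 128 and 110 CPM on dpi 42. Here too the groups overlapped with the naive one.

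**Figure D1:**
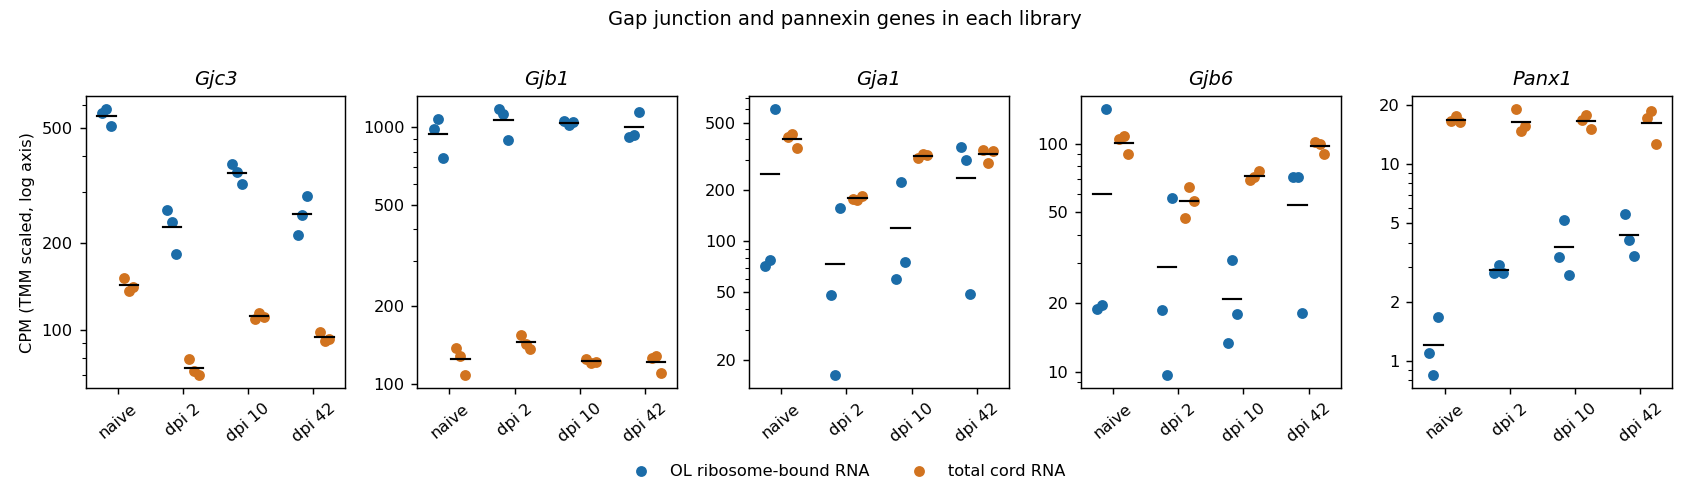
Level of the 5 genes in each of the 24 libraries, in TMM-scaled CPM on a log axis, by time. Each dot is 1 library (a pool of 2 mice), blue for OL ribosome-bound RNA and orange for total cord RNA, and the bar is the mean of 3. Gjc3 falls after SCI in both kinds of RNA, Gjb1 stays between 757 and 1178 CPM in OL libraries, the OL libraries of Gja1 and Gjb6 spread widely within a time, and Panx1 rises in OL libraries from a low level.

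The enrichment of Gjb1 in OL libraries over total RNA was 7.55-fold in naive tissue, 7.34-fold on dpi 2, 8.55-fold on dpi 10 and 8.25-fold on dpi 42. On the log2 scale these differences were 2.92, 2.88, 3.10 and 3.04 ± 0.14 (SE, edgeR quasi-likelihood test, q = 3.4e-13, 9.4e-13, 3.2e-13 and 4.4e-13, where q is the Benjamini-Hochberg adjusted p over all tested genes). Gjc3 was enriched 3.85-, 3.07-, 3.12- and 2.66-fold at these times, a log2 difference of 1.94, 1.62, 1.64 and 1.41 ± 0.12 (q = 1.1e-11, 3.0e-10, 1.8e-10 and 1.6e-09). In all 8 comparisons the 3 OL libraries lay above the 3 total RNA libraries. Counted with Panx1, which was lower in OL libraries, and with Gjb6 on dpi 10, 3 of the 5 genes were called in naive tissue, 3 on dpi 2, 4 on dpi 10 and 3 on dpi 42 (q under 0.05). Over all tested genes 55.5%, 53.6%, 54.0% and 53.8% were called in these comparisons, so that a count of 3 of 5 is near the background. The median log2 difference of all genes was -0.27, -0.19, -0.22 and -0.18.

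Within OL libraries, the mean level of Gjc3 went from 550 ± 38.3 CPM (SD, n = 3) in naive tissue to 227 ± 38.9 CPM on dpi 2, 349 ± 26.9 CPM on dpi 10 and 252 ± 38.2 CPM on dpi 42. Gjc3 fell 2.42-fold on dpi 2 (log2 change -1.28 ± 0.12, edgeR q = 3.0e-08), 1.58-fold on dpi 10 (-0.66 ± 0.12, q = 3.8e-04) and 2.19-fold on dpi 42 (-1.13 ± 0.12, q = 5.3e-07). Over 36 alternatives (other scalings, filters, tests and samples) the highest q was 0.00158, 0.00559 and 0.00372 for the 3 times. Neighboring times also differed: Gjc3 was 1.54-fold higher on dpi 10 than on dpi 2 (0.62 ± 0.12, q = 4.5e-04) and 1.39-fold lower on dpi 42 than on dpi 10 (-0.47 ± 0.11, q = 0.0179), whereas dpi 42 and dpi 2 did not pass the test (0.15 ± 0.11, q = 0.414). The order of levels was therefore naive, dpi 10, then dpi 42 and dpi 2, the last pair not told apart beyond their spread. The step from dpi 10 to dpi 42 was the least firm. It lost its call without OL dpi 10 pool 1, OL dpi 42 pool 1 or OL dpi 42 pool 2 (-0.51 to -0.41, q = 0.0535 to 0.0793). Without the 5 OL libraries high in astrocyte markers, which leaves only OL pool 3 on dpi 42, it was -0.27. Without both libraries with conflicting labels it was -0.37 (q = 0.101), and q over its alternatives ran from 0.00248 to 0.24.

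Gjb1 in OL libraries had mean levels of 941 ± 166, 1066 ± 152, 1043 ± 18.9 and 1002 ± 131 CPM (SD, n = 3), in the order naive, dpi 2, dpi 10, dpi 42. Its log2 changes against naive were 0.18, 0.15 and 0.09 ± 0.13 (edgeR q = 0.293, 0.484 and 0.661). With library sizes alone, the dpi 2 value of Gjb1 was 0.35 and passed (q = 0.0148, range 0.0148 to 1.0 over alternatives), so that its place beside the fall of Gjc3 depends on the scaling. In the fit of all groups with TMM, no pair of times passed for Gjb1 in either kind of RNA. Thus 2 of the 5 genes, Gjc3 and Panx1, were called in OL libraries at each time after SCI, where 38.4%, 18.2% and 33.1% of all tested genes were called on dpi 2, 10 and 42. Gjc3 was the 1 gene of the 5 called between dpi 10 and dpi 2 (22.3% of all genes) and between dpi 42 and dpi 10 (7.18%), and none was called between dpi 42 and dpi 2 (17.6%).

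In total RNA the mean of Gjc3 was 143 ± 7.5 CPM in naive tissue, 74.0 ± 5.03 CPM on dpi 2, 112 ± 3.06 CPM on dpi 10 and 94.6 ± 3.62 CPM on dpi 42. The fall was 1.93-fold on dpi 2 (-0.95 ± 0.12, edgeR q = 1.7e-06), 1.28-fold on dpi 10 (-0.36 ± 0.12, q = 0.0212) and 1.51-fold on dpi 42 (-0.60 ± 0.12, q = 7.0e-04). From dpi 2 to dpi 10 Gjc3 rose 1.51-fold (0.60 ± 0.12, q = 0.002). In these bulk samples fewer OLs and less Gjc3 RNA per OL cannot be told apart in total RNA. The dpi 10 call depended on the scaling: it was lost with DESeq2 size factors (-0.30, q = 0.0522), with library sizes alone (-0.18, q = 0.205) and with a total RNA library as the TMM reference (-0.20, q = 0.246). It was also lost when any of the 12 OL libraries was left out, each of which moved the TMM reference from an OL library to a total RNA library (-0.24), and without total RNA naive pool 1 or total RNA dpi 10 pool 1 or 3 (q = 0.0564 to 0.173 over these 15). Gjc3 was the 1 gene of the 5 called in total RNA at each time, against 37.2%, 32.1% and 22.5% of all genes on dpi 2, 10 and 42, and the 1 called between dpi 10 and dpi 2 (7.84%). None of the 5 was called between dpi 42 and dpi 10 (0.262% of all genes) or between dpi 42 and dpi 2 (10.8%).

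Gjb1 in total RNA was at 125 ± 15.3, 145 ± 9.01, 122 ± 2.99 and 121 ± 10.0 CPM (SD, n = 3) in the 4 groups, and its dpi 2 difference of 0.22 ± 0.13 did not pass (edgeR q = 0.195). This value moved with the scaling. It was 0.44 (q = 0.003) with library sizes alone, 0.35 (q = 0.0499) with a total RNA reference and 0.37 (q = 0.0169 to 0.0428) when any of the 12 OL libraries was left out, each of which moved the reference. It was 0.34 (q = 0.0165) in a fit of the 2 groups compared, and the lowest and highest q over its alternatives were 0.00172 and 0.544.

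The ratio of Gjb1 to Gjc3 within a library needs no scaling between libraries. The naive OL libraries had ratios of 1.75, 1.86 and 1.49, those of dpi 2 had 4.53, 4.77 and 4.85, those of dpi 10 had 2.82, 2.90 and 3.28, and those of dpi 42 had 4.28, 3.74 and 3.96. None of the 4 groups overlapped with another, and the 3 groups after SCI were above the naive one. The naive total RNA libraries had 0.91, 0.937 and 0.767, those of dpi 2 had 1.95, 1.98 and 1.96, those of dpi 10 had 1.15, 1.04 and 1.09 and those of dpi 42 had 1.28, 1.40 and 1.18, again without overlap. With 3 libraries against 3, the smallest p that an exact two-sided permutation test can give is 0.1, so no such test was used for these ratios. Since the reads are counted per gene of a different length, the ratios compare times and not the amounts of the 2 mRNAs.

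**Figure D2:**
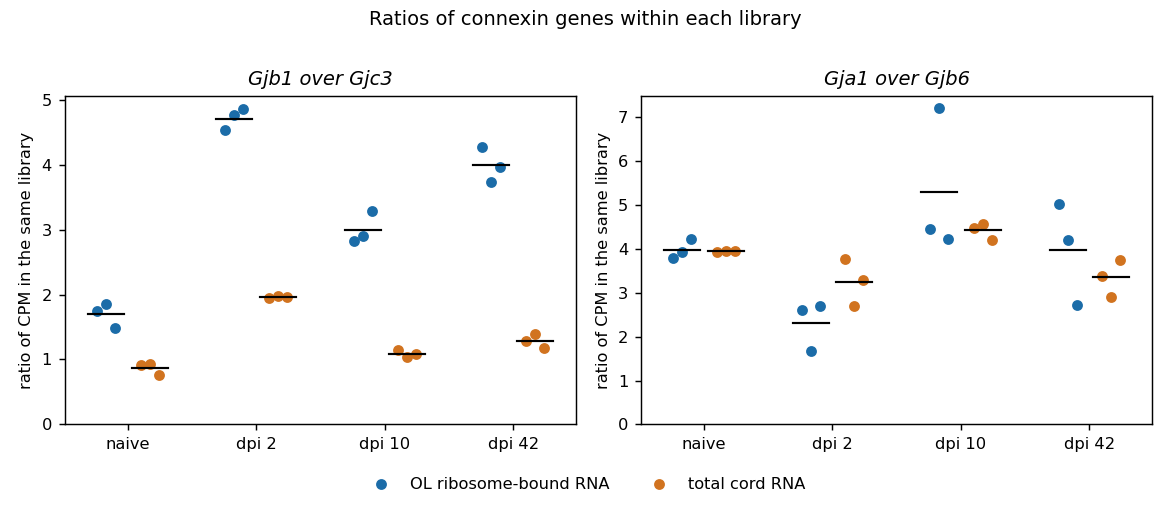
Ratio of Gjb1 to Gjc3 (left) and of Gja1 to Gjb6 (right) within each library, by time, as CPM over CPM on linear axes from 0. Each dot is 1 library, blue for OL and orange for total RNA, and the bar is the mean of 3. The left ratio is lowest in naive tissue and highest on dpi 2 in both kinds of RNA, whereas the right ratio is lower on dpi 2 than in naive tissue in both.

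OL markers moved as well. Of 10 OL markers, 4 fell and 1 rose in OL libraries on dpi 2, 1 rose on dpi 10 and 5 fell on dpi 42, and their median log2 changes were -0.30, -0.20 and -0.31. Schwann cell markers were present after SCI and nearly absent from naive pools 1 and 2. Of the 7 listed, 2 were OL-enriched on dpi 2 (24.8% of all genes). The sum of the 7 was 231 to 700, 881 to 1556 and 1216 to 1415 CPM in OL libraries on dpi 2, 10 and 42. In total RNA it was 64.9 to 263, 186 to 377 and 280 to 676 CPM. Gjb1 is a Schwann cell gene too. The part that Schwann cell RNA has in the levels of Gjb1 and Gjc3, and in their ratio, was not tested.

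Gja1 and Gjb6, the astrocyte connexins, spread widely between OL libraries of 1 group. Gja1 was at 71.3, 77.2 and 600 CPM in naive OL libraries, 48.4, 16.3 and 156 CPM on dpi 2, 59.9, 223 and 75.9 CPM on dpi 10 and 358, 301 and 49.0 CPM on dpi 42. For Gjb6 the values were 18.9, 19.7 and 142 CPM, then 18.6, 9.68 and 57.9 CPM, then 13.4, 30.9 and 18 CPM, and 71.2, 71.8 and 18.1 CPM on dpi 42. The high libraries were the same ones for both genes, and they were the 5 OL libraries with over 10000 CPM of astrocyte markers. In those 5, Gja1 was at 156 to 600 CPM and Gjb6 at 30.9 to 142 CPM, against 16.3 to 77.2 CPM and 9.68 to 19.7 CPM in the other 7, without overlap. The split was made by the sum of the 10 astrocyte markers, so that their own levels are no separate evidence for it. Of these, 6 (Slc1a2, Aqp4, Gfap, Fgfr3, Slc4a4 and Atp1b2) were above without overlap. The sum of 5 markers of OL precursors, which had no part in the split, was above as well, at 84.7 to 144 CPM against 23.4 to 50.3 CPM. No astrocyte marker was at 0 in either set, since the lowest were Fgfr3 at 12.6 CPM and Slc4a4 at 19.8 CPM. Over all times, Gjc3, Gjb1 and Panx1 overlapped between the 5 and the 7 libraries. Within each time, Gjb1 was lower in the libraries high in astrocyte markers (in naive tissue 757 against 986 and 1080 CPM). Gjc3 was lower there as well except on dpi 10. Panx1 was higher there in naive tissue (1.68 against 1.09 and 0.846 CPM), on dpi 10 and on dpi 42, but not on dpi 2. The part of astrocyte RNA in the OL values of all 5 genes was not tested.

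**Figure D3:**
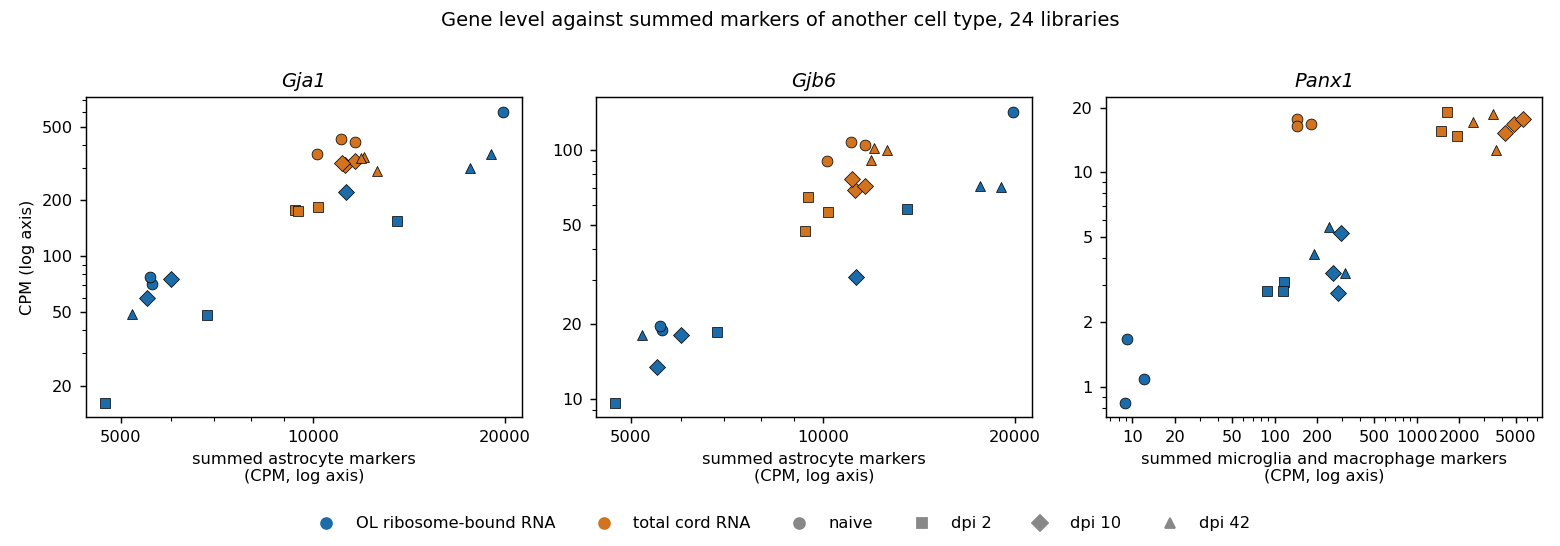
Level of Gja1 and Gjb6 against the summed level of 10 astrocyte markers, and of Panx1 against the summed level of 9 microglia and macrophage markers, in 24 libraries, all in CPM on log axes. Color gives the kind of RNA (blue OL, orange total cord RNA) and shape the time. OL libraries with over 10000 CPM of astrocyte markers are those with high Gja1 and Gjb6, and OL libraries of Panx1 lie below all total RNA libraries.

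In total RNA both genes were even within a group. Gja1 was at 411, 428 and 356 CPM in naive tissue, 178, 175 and 185 CPM on dpi 2, 310, 328 and 320 CPM on dpi 10 and 345, 290 and 340 CPM on dpi 42. Gjb6 was at 105, 108 and 89.9 CPM, then 47.3, 64.9 and 56.4 CPM, then 69.2, 71.8 and 76.1 CPM, and 102, 99.9 and 90.7 CPM on dpi 42. On dpi 2 the 3 libraries of each gene lay below the 3 naive ones and also below those of dpi 10 and dpi 42. In the fit of all groups, whose spread is shared with the uneven OL libraries, the dpi 2 differences did not pass, at -1.15 ± 0.76 for Gja1 (edgeR q = 0.253) and -0.84 ± 0.63 for Gjb6 (q = 0.32). With only the 2 groups compared in the fit, Gja1 fell (-1.03, q = 4.0e-06) and Gjb6 fell (-0.72, q = 5.4e-04). Without the 5 OL libraries high in astrocyte markers, the values were -1.0 (q = 6.3e-04) for Gja1 and -0.70 (q = 0.0017) for Gjb6. Over all alternatives q ran from 4.0e-06 to 0.39 for Gja1 and from 5.4e-04 to 0.511 for Gjb6.

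The later times were compared in the same way. In the fit of all groups the differences from naive in total RNA were -0.32 and -0.29 ± 0.75 for Gja1 (edgeR q = 0.8 and 0.839 on dpi 10 and dpi 42), with each library below the naive ones. For Gjb6 they were -0.48 and -0.05 ± 0.63 (q = 0.618 and 0.982). With only the groups compared, the difference from dpi 2 passed for Gja1 on dpi 10 (0.81, q = 1.4e-05) and dpi 42 (0.81, q = 1.3e-04) and for Gjb6 on dpi 42 (0.75, q = 9.8e-04), and Gjb6 was lower on dpi 10 than in naive tissue (-0.33, q = 0.00315) and higher on dpi 42 than on dpi 10 (0.41, q = 0.0178). None of these passed in the fit of all groups, whose q was 0.481 to 0.913. Across all alternatives q ran from 1.4e-05 to 0.771 and from 1.3e-04 to 0.7 for the pair of Gja1 values, and from 9.8e-04 to 0.641, 0.00315 to 0.799 and 0.0178 to 1.0 for those of Gjb6.

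Summed astrocyte markers in total RNA were 10167 to 11659 CPM in naive tissue, 9376 to 10185 CPM on dpi 2, 11103 to 11664 CPM on dpi 10 and 11911 to 12621 CPM on dpi 42. Set against this sum, Gja1 in total RNA was at 35.0 to 38.6 CPM for each 1000 CPM of markers in naive tissue, 18.2 to 19 on dpi 2, 27.6 to 28.8 on dpi 10 and 23 to 28.7 on dpi 42. Gjb6 was at 8.84 to 9.74, 5.04 to 6.83, 6.15 to 6.85 and 7.62 to 8.49 on the same measure. For both genes each group after SCI lay below the naive group. The marker sum holds Gfap, a gene of reactive astrocytes, so it is not a count of astrocytes. The median log2 change of the 10 markers in total RNA was -0.83, -0.45 and -0.29 on dpi 2, 10 and 42. Beside it, Gja1 changed by -1.15, -0.32 and -0.29 and Gjb6 by -0.84, -0.48 and -0.05, so against this median neither gene was lower at every time. The ratio of Gja1 to Gjb6 in total RNA was 3.93 to 3.96 in naive tissue and 2.69 to 3.77 on dpi 2, 4.21 to 4.57 on dpi 10 and 2.90 to 3.75 on dpi 42, so that the naive group lay between dpi 10 and the other times.

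Between OL and total RNA, Gja1 differed by -0.67, -1.29, -1.42 and -0.46 on the log2 scale, in the order naive, dpi 2, dpi 10, dpi 42 (SE 0.75 to 0.76, edgeR q = 0.469, 0.16, 0.123 and 0.636), and Gjb6 by -0.74, -0.97, -1.80 and -0.86 (SE 0.63 to 0.65, q = 0.336, 0.208, 0.0246 and 0.26). The OL libraries lay below the total RNA libraries without overlap for Gja1 on dpi 2 and dpi 10 and for Gjb6 on dpi 10 and dpi 42. The value of Gjb6 on dpi 10 passed, and it was lost without OL dpi 10 pool 1 (-1.53, q = 0.101) or pool 3 (-1.67, q = 0.077), within alternatives of 1.4e-08 to 0.101. That of Gja1 on dpi 10 passed with only the 2 groups compared (-1.35, q = 0.0155) and with library sizes alone (-1.99, q = 0.0394). Without the 5 OL libraries high in astrocyte markers, Gja1 was lower in OL libraries in all 4 groups (log2 -2.26, -2.51, -2.19 and -2.69). For naive, dpi 2 and dpi 10 q was 1.8e-07, 7.5e-08 and 3.5e-07, and on dpi 42 only OL pool 3 was left. These 5 libraries held the highest OL values of Gja1 and Gjb6 and were left out after seeing the data. The lower values follow in part from that choice and are no separate evidence. In the same fit Gjb6 was at -2.23 (naive, q = 6.4e-09), -2.03 (dpi 2, q = 3.6e-08) and -2.39 (dpi 42, with OL pool 3 alone). Leaving out OL naive pool 3 alone gave -2.26 for Gja1 (q = 0.0104) and -2.23 for Gjb6 (q = 0.00163) in naive tissue, leaving out OL dpi 2 pool 3 gave -2.51 (q = 0.0155) and -2.03 (q = 0.016) on dpi 2, and leaving out OL dpi 10 pool 2 gave -2.19 for Gja1 (q = 0.0422) on dpi 10. The highest q over alternatives was 0.974, 0.461, 0.322 and 1.0 for Gja1 in the 4 groups and 0.881, 0.672 and 0.59 for these values of Gjb6.

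Changes of these genes within OL libraries rested on the same libraries. On dpi 2 the log2 difference from naive was -1.76 ± 0.77 for Gja1 (edgeR q = 0.0784) and -1.07 ± 0.64 for Gjb6 (q = 0.205), on dpi 10 -1.06 ± 0.76 (q = 0.377) and -1.54 ± 0.65 (q = 0.112), and on dpi 42 -0.08 ± 0.75 (q = 1.0) and -0.17 ± 0.63 (q = 0.93). None passed, and all groups overlapped. The dpi 2 value of Gja1 passed with DESeq2 (-1.74, q = 0.0432), without OL naive pool 1 (-2.27, q = 0.0294), OL naive pool 2 (-2.25, q = 0.0315), OL dpi 2 pool 3 (-3.00, q = 0.00883) or OL dpi 42 pool 3 (-1.83, q = 0.0421), and without the 5 libraries (-1.25, q = 8.9e-04), within a range of 8.9e-04 to 1.0. That of Gjb6 passed without OL dpi 2 pool 3 (-2.14, q = 0.0175, range 0.0175 to 0.514). The dpi 42 value of Gjb6 changed sign, to 1.41 (q = 0.0459), without OL naive pool 3, and to 1.48 (q = 0.0461) without both libraries of that pool, within a range of 0.0459 to 1.0. From dpi 2 to dpi 42 Gja1 differed by 1.68 ± 0.77 (q = 0.141), and by 2.85 (q = 0.023, range 0.023 to 0.369) without OL dpi 2 pool 3. From dpi 2 to dpi 10 it differed by 0.70 ± 0.75 (q = 0.577), and by 1.12 (q = 0.00405, range 0.00405 to 1.0) without the 5 libraries.

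**Figure D4:**
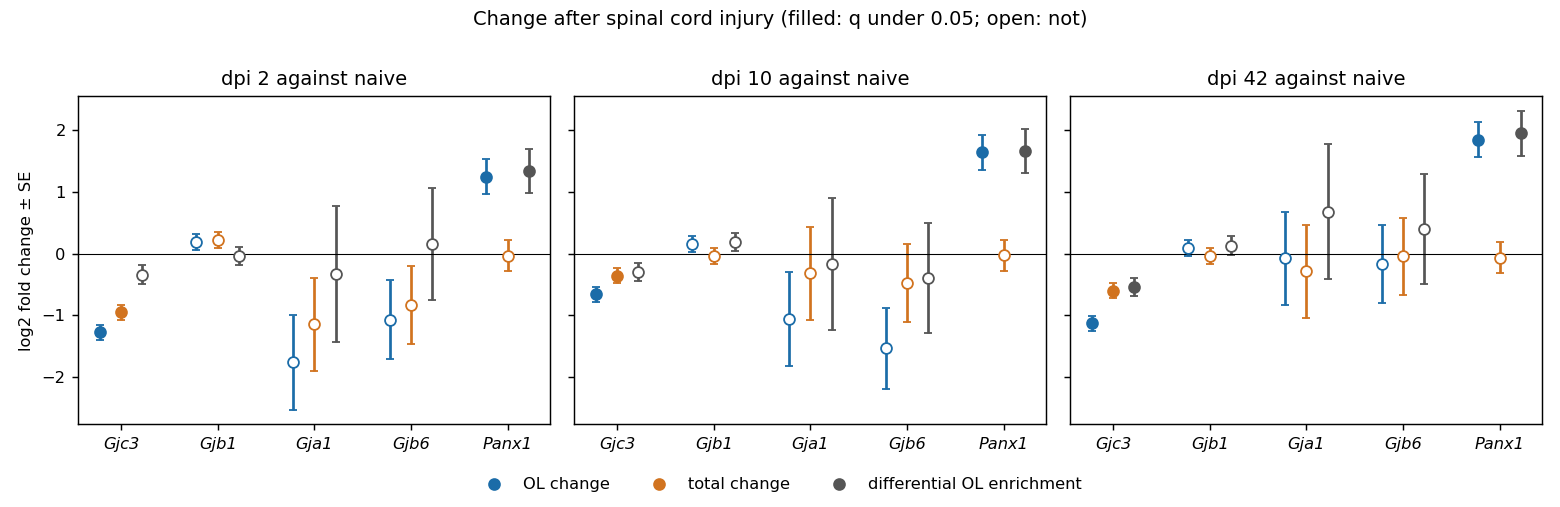
Log2 differences of the 5 genes with their standard errors on dpi 2, 10 and 42 against naive: the change in OL libraries (blue), the change in total RNA (orange) and differential OL enrichment (gray, the difference between the 2 changes). Filled points passed the test (q under 0.05). Gjc3 falls in both kinds of RNA, Panx1 rises in OL libraries with values near 0 in total RNA, and the wide bars belong to Gja1 and Gjb6.

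Panx1 was low in OL libraries and rose there after SCI, while no change passed in total RNA. Its OL values were 1.09, 0.846 and 1.68 CPM in naive tissue (20 to 44 counts), 2.80, 3.08 and 2.79 CPM on dpi 2 (73 to 76 counts), 3.38, 5.21 and 2.74 CPM on dpi 10 (72 to 137 counts) and 5.56, 4.14 and 3.40 CPM on dpi 42 (87 to 159 counts). All 9 libraries after SCI were above the 3 naive ones. In total RNA Panx1 was at 16.7, 17.7 and 16.4 CPM in naive tissue, 19.1, 14.7 and 15.6 CPM on dpi 2, 16.8, 17.8 and 15.2 CPM on dpi 10 and 17.2, 18.6 and 12.7 CPM on dpi 42. These groups overlapped, and each total RNA library was above each OL library. All Panx1 counts were above the floor of 3.

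Panx1 was 13.9-fold lower in OL than in total RNA in naive tissue, 5.70-fold on dpi 2, 4.39-fold on dpi 10 and 3.70-fold on dpi 42 (log2 -3.80 ± 0.29, -2.51 ± 0.27, -2.13 ± 0.26 and -1.89 ± 0.26, edgeR q = 2.9e-10, 7.9e-08, 5.6e-07 and 2.6e-06). Within OL libraries it rose 2.38-fold on dpi 2 (1.25 ± 0.28, q = 0.00107), 3.11-fold on dpi 10 (1.64 ± 0.28, q = 2.6e-04) and 3.60-fold on dpi 42 (1.85 ± 0.28, q = 3.2e-05). No difference of Panx1 between the 3 times after SCI passed (q = 0.122 to 0.702). In total RNA the differences were -0.04, -0.03 and -0.07 ± 0.25 (q = 0.937, 0.956 and 0.899). The dpi 2 rise lost its call in a fit of the 2 groups compared (1.31, q = 0.0951), the highest value of alternatives that began at 6.2e-05, and the other rises kept a q of at most 0.0479 and 0.0272.

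Differential OL enrichment, the OL-to-total difference after SCI minus that in naive tissue with OL and total RNA paired by tissue pool, tests whether the 2 kinds of RNA changed unequally. It was positive for Panx1 on dpi 2 (1.34 ± 0.36, edgeR q = 0.0271), dpi 10 (1.66 ± 0.36, q = 0.0154) and dpi 42 (1.95 ± 0.36, q = 0.00652). For Gjc3 it was -0.34 (q = 0.174), -0.30 (q = 0.289) and -0.54 (q = 0.0442), each ± 0.15, so that the OL-to-total ratio of Gjc3 passed on dpi 42 alone. Gjb1 was at -0.04, 0.19 and 0.13 ± 0.15 (q = 0.985, 0.604 and 0.729), and Gja1 and Gjb6, whose standard errors were 0.89 to 1.10, had q of 0.848 or more. Of the 5 genes 1, 1 and 2 were thus called on dpi 2, 10 and 42, against 13.3%, 7.63% and 7.85% of all tested genes. The Panx1 call was lost on dpi 2 without any of 15 libraries (0.88 to 1.33, q = 0.0537 to 0.222), namely OL naive pools 1 and 2, each OL library after SCI, total RNA naive pools 1 and 2 and total RNA dpi 2 pools 2 and 3. Leaving out any OL library moves the TMM reference to a total RNA library, and the 6 OL libraries of dpi 10 and dpi 42 each gave 1.13. With a total RNA reference and all libraries, the dpi 2 value of Panx1 was 1.09 (q = 0.0582), with only the groups compared 1.34 (q = 0.0708), and without both libraries of dpi 2 pool 2 1.22 (q = 0.082). On dpi 10 it was lost without OL naive pool 1 or 2, total RNA naive pool 1 or 2, OL dpi 10 pool 1 or 2 or total RNA dpi 10 pool 2 (1.30 to 1.62, q = 0.0594 to 0.112), and on dpi 42 without OL naive pool 2 (1.55, q = 0.0535). The lowest q of Panx1 over alternatives was 0.0061, 7.3e-04 and 3.6e-05.

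The Gjc3 call of differential OL enrichment on dpi 42 was likewise lost without any of 13 libraries (-0.72 to -0.40, q = 0.0503 to 0.18): OL naive pools 1 and 2, each total RNA naive library, total RNA dpi 2 pool 1, each total RNA dpi 10 library, and both libraries of dpi 42 pools 1 and 2. The range of q for it was 0.00436 to 0.18. On dpi 2 the Gjc3 value passed without any of 8 OL libraries (naive pool 3, dpi 2 pool 1, each of dpi 10 and each of dpi 42, at -0.62 to -0.55 with q = 0.0149 to 0.0499) and without the 5 OL libraries high in astrocyte markers (-0.49, q = 0.0219), within a range of 0.0149 to 0.448. It passed too with library sizes alone (-0.39, q = 0.0449) and with a total RNA library as the TMM reference (-0.59, q = 0.0212), and with that reference the dpi 10 value of Gjc3 passed as well (-0.54, q = 0.0468, range 0.0468 to 0.639).

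Microglia and macrophage markers moved with Panx1 in OL libraries. Their sum over 9 genes was 8.93 to 12.1 CPM in naive OL libraries, 88.1 to 117 CPM on dpi 2, 256 to 293 CPM on dpi 10 and 191 to 311 CPM on dpi 42, and 9 of 9 rose at each time. In total RNA the sum went from 143 to 182 CPM in naive tissue to 1494 to 1913 CPM on dpi 2, 4167 to 5569 CPM on dpi 10 and 2495 to 3641 CPM on dpi 42, where Panx1 stayed between 12.7 and 19.1 CPM. The median OL-to-total difference of these 9 markers was -3.95, -3.83, -4.06 and -3.71 on the log2 scale, and none of the 9 was called for differential OL enrichment on dpi 2, 10 or 42 (median 0.06, 0.15 and 0.33). Endothelial and pericyte markers summed to 8.04 to 17.2 CPM in naive OL libraries and 16.5 to 36.4 CPM after SCI, and fibroblast and meningeal markers to 47.6 to 96.2 CPM and 202 to 504 CPM. The part of these cells, or of astrocytes, in the OL values of Panx1 was not tested.

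The order of the genes per kilobase of exon differed between the 2 kinds of RNA. In naive OL libraries Gjb1 was at 551 ± 97.5 CPM per kilobase, Gjc3 at 126 ± 8.79, Gja1 at 24.3 ± 29.6, Gjb6 at 22.5 ± 26.5 and Panx1 at 0.2 ± 0.0713 (SD, n = 3). In naive total RNA Gjb1 was at 73.1 ± 8.98 CPM per kilobase, Gja1 at 38.8 ± 3.66, Gjb6 at 37.7 ± 3.60, Gjc3 at 32.8 ± 1.72 and Panx1 at 2.81 ± 0.11. In naive total RNA the libraries of Gja1 (34.7 to 41.7), Gjb6 (33.6 to 40.4) and Gjc3 (31.5 to 34.8 CPM per kilobase) overlapped with each other.

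Across the 24 libraries, the genes most like each member were found by Pearson's r of log2 CPM over 13677 genes, as a description. Since OL and total RNA differ for most genes, r mainly sets genes by their OL enrichment. Gjb1 was nearest to Hapln2, Mag and S1pr5 (r = 0.997, 0.997 and 0.996), of which Mag encodes a glycoprotein of myelin. Gjc3 was nearest to Gpm6b, Gpr155 and Mon2 (0.991, 0.990 and 0.988), and none of these is among the 3 nearest to Gjb1. Gja1 was nearest to Pla2g7, Slc1a2 and Extl1 (0.984, 0.977 and 0.975), of which Slc1a2 encodes the main glutamate transporter of astrocytes. Gjb6 was nearest to Slc41a1, Pfkm and Mtss1l (0.975, 0.973 and 0.971) and Panx1 to Capn1 and Hpcal1 (0.978 and 0.974). Between members, r was 0.953 for Gja1 and Gjb6, 0.862 for Gjb1 and Gjc3 and -0.918 for Gjc3 and Panx1.

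The other connexins and pannexins were mostly low in OLs. Of 23 listed family genes 19 were tested, and in the order naive, dpi 2, dpi 10, dpi 42, 4, 3, 3 and 3 were OL-enriched (24.9%, 24.8%, 25.2% and 24.9% of all genes), whereas 5, 6, 7 and 7 were lower in OL libraries (30.5%, 28.8%, 28.8% and 28.9%). Their median log2 difference was -0.67, -1.29, -1.78 and -0.90, or -0.71, -2.22, -1.42 and -0.83 over the 15 to 18 genes above the floor in either kind of RNA, with a group at 0 set to the floor. Gjb1 and Gjc3 were among the enriched ones throughout. Gjb2, which encodes CX26, a connexin of astrocytes and meninges, was enriched in naive tissue (log2 1.82 ± 0.29, edgeR q = 1.3e-05), with 32.2, 23.2 and 22 CPM in OL libraries and 7.90, 6.03 and 7.96 CPM in total RNA. After SCI Gjb2 rose in total RNA to means of 24.5, 68.5 and 51.8 CPM (log2 1.75, 3.23 and 2.83, edgeR q = 5.2e-05, 7.0e-08 and 6.2e-07), while its OL values did not pass (-0.47, 0.18 and 0.10, q = 0.193, 0.746 and 0.868). The sum of 6 fibroblast and meningeal markers in total RNA was 56.6 to 82.8 CPM in naive cords, 335 to 718 CPM on dpi 2, 1704 to 1864 CPM on dpi 10 and 463 to 762 CPM on dpi 42, and the part of these cells in the rise of Gjb2 was not tested. The OL-to-total ratio of Gjb2 thus changed by -2.22, -3.04 and -2.63 relative to naive (q = 0.00457, 0.00118 and 0.00347), where that of Panx1 went up. Panx2, the pannexin of neurons, was at a mean of 267 CPM in naive total RNA and fell to 124, 109 and 166 CPM (-1.11, -1.30 and -0.69, q = 3.5e-04, 9.5e-05 and 0.0247), and the sum of 8 neuron markers in total RNA was 8178 to 8639 CPM in naive tissue and 3580 to 6650 CPM after SCI.

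Within OL libraries, the numbers of family genes that rose or fell were 1 and 3 on dpi 2 (18.4% and 20% of all genes), 1 and 2 on dpi 10 (9.62% and 8.59%) and 2 and 1 on dpi 42 (16.2% and 16.9%). The medians over the 19 were -0.47, 0 and -0.08, beside 0 over all genes at each time. In total RNA they were 3 and 3 on dpi 2 (16.4% and 20.8%), 2 and 2 on dpi 10 (13.9% and 18.2%) and 1 and 2 on dpi 42 (10.4% and 12.1%). Gjc1, which encodes CX45, was the second gene to rise in OL libraries on dpi 42, from 0.571 to 2.05 CPM (log2 1.83 ± 0.61, edgeR q = 0.0246).

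Among genes of proteins that bind connexins or hold junctions in place, some fell and others rose in OL libraries after SCI. Of 9 listed partners 8 were tested, of which 4 fell at each time (20%, 8.59% and 16.9% of all genes on dpi 2, 10 and 42) and 2, 1 and 2 rose (18.4%, 9.62% and 16.2%). The median log2 change of the 8 was -0.52, -0.37 and -0.01. Tjp1, which encodes the scaffold ZO-1 that binds several connexins, was at 189, 182 and 189 CPM in naive OL libraries, 114, 82.2 and 115 CPM on dpi 2, 111, 121 and 110 CPM on dpi 10 and 57.4, 79.3 and 91.4 CPM on dpi 42. All libraries after SCI were below the naive ones (log2 -0.85, -0.71 and -1.30 ± 0.16, edgeR q = 2.1e-04, 0.00321 and 4.3e-06). Hepacam, which encodes GlialCAM, an adhesion protein of glia that binds connexins, fell from 933 CPM to 547, 725 and 755 CPM (-0.77, -0.36 and -0.31, q = 8.8e-07, 0.00693 and 0.0117). In total RNA the differences of Tjp1 were -0.08, -0.06 and -0.16, none of which passed. Differential OL enrichment of Tjp1 was -0.77, -0.65 and -1.16 (q = 0.00453, 0.0191 and 9.3e-04). Tjp1, Hepacam and Cnst were among the 4 partners that fell at each time, and Ccn3 rose at each time from 0.204 CPM.

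ATP released through channels such as pannexin 1 acts on P2 receptors and is broken down by ectonucleotidases. Of 18 such genes 17 were tested, and in OL libraries 1, 1 and 2 rose at the 3 times (18.4%, 9.62% and 16.2% of all genes) and 3, 0 and 3 fell (20%, 8.59% and 16.9%), which is near or below the background, with a median log2 change of -0.48, 0.24 and 0.26. In total RNA 5, 5 and 3 rose (16.4%, 13.9% and 10.4% of all genes) and 1, 1 and 0 fell (20.8%, 18.2% and 12.1%), with a median of 0.87, 0.71 and 0.44. P2rx7, the ATP-gated channel of the P2X family that opens at high ATP, was at 66.5, 70.2 and 54.4 CPM in naive OL libraries, 33.5, 23 and 37.9 CPM on dpi 2, 54.1, 44.9 and 43.3 CPM on dpi 10 and 36.1, 35.7 and 40.0 CPM on dpi 42. Each library after SCI was below the naive ones (log2 -1.02, -0.42 and -0.77 ± 0.16, edgeR q = 3.8e-05, 0.0737 and 8.9e-04), the dpi 10 value not passing. In total RNA P2rx7 rose from a mean of 13.9 CPM to 26.1, 37.0 and 35.1 CPM (0.91, 1.41 and 1.34, q = 1.5e-04, 1.5e-06 and 5.7e-06). The OL-to-total ratio of P2rx7 therefore changed by -1.95, -1.84 and -2.09 ± 0.21 (q = 1.3e-04, 3.6e-04 and 1.7e-04). P2rx4 was at 68.0, 64.8, 80.1 and 73.2 CPM in OL libraries of the 4 groups with no change passing, and rose in total RNA from 19.6 to 39.1, 83.1 and 60.1 CPM (q = 5.9e-05, 1.1e-08 and 5.4e-07). P2rx4 and P2rx7 are also expressed by microglia, whose markers rose in total RNA as given above.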

How the data were processed

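RNA of 24 libraries (12 OL and 12 total RNA, 3 pools of 2 mice per group) was analysed from 1 table. Per the labels and the methods of the study, reads were checked with FastQC 0.10.1, aligned to mm10 with STAR and counted on genes with HTSeq 0.10.0. The authors deposited raw read counts without normalization, as whole numbers, and they themselves used DESeq2 on genes that reached 10 counts. Here, the 17167 of 21965 genes whose counts summed to 10 or more over the 24 libraries were scaled by TMM and fitted with edgeR 4.0.16 (R 4.3.3) as 8 group means. Differential OL enrichment used the 12 tissue pools as a block, since OL and total RNA of a pool come from the same mice. Deviations of the 2 libraries of a pool from their group means correlated at r = 0.11 to 0.217 in naive tissue, 0.151 to 0.171 on dpi 2, 0.0437 to 0.138 on dpi 10 and -0.0525 to 0.00658 on dpi 42. The Benjamini-Hochberg adjustment covered all tested genes, and q under 0.05 was called. Standard errors are the log2 difference divided by the square root of F. Libraries of a group differed by more than sampling noise (mean chi-square per gene 8.22 to 166), so each counted as 1 replicate.

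The genes named are the 5 members, 3 lists of related genes (connexin and pannexin family, gap junction partners, ATP receptors and ectonucleotidases), marker lists, and the 3 genes with the highest r to each member at a mean of at least 1 CPM. Some genes that these lists or the rule name are counted but not reported here by name. Members and lists were chosen with earlier results of these data known. Gene positions and exon lengths are from GENCODE M21 (GRCm38), promoters from RefSeq (GRCm38.p6). Simulated data with known changes were used to test the fits of 16981 genes, with 100 genes changed at each fold. For the OL change on dpi 2, 48% of 2-fold and 89% of 4-fold changes were recovered, and 6.16% of calls were false. For differential OL enrichment the recovered shares were 20% and 65%, with 3.41% of calls false. Changed genes were drawn from those above a minimum mean count, so recovery below it was not tested. Apart from the set changes and a small pool effect, all simulated libraries shared the same gene means. The simulation therefore did not cover the difference between OL and total RNA, a moved TMM reference or a few uneven OL libraries. DESeq2 1.42.0, other scalings, filters, blocks and samples were alternatives. Samples were grouped by GEO's labels, and where these conflicted the description was used.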

Additional observations from a re-analysis of the deposited data

Results flagged for a closer look

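Differential OL enrichment is a difference between the change in OL libraries and the change in total RNA, tested as an interaction in the paired fit, and it passed for 2 genes. For Panx1 it was 1.34 on dpi 2, 1.66 on dpi 10 and 1.95 on dpi 42 (edgeR q = 0.0271, 0.0154 and 0.00652), with OL values higher than naive in 9 of 9 libraries and total RNA values overlapping. For Gjc3 it was -0.54 on dpi 42 (q = 0.0442), with both kinds of RNA lower than naive in 3 of 3 libraries and the OL libraries by more. As given above, leaving out any of 13 single libraries lost this Gjc3 call. The Panx1 call was lost without any of 15 single libraries on dpi 2, any of 7 on dpi 10 and 1 on dpi 42.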

How the results depend on the processing

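Each of 95 results (5 genes in 19 comparisons) was recomputed under 12 settings and without each of the 24 libraries. Of 1140 values under the settings, 1082 kept their direction and their side of the threshold, 14 lost a call, 43 gained one and 1 reversed, and of 2280 without a single library the numbers were 2192, 56, 31 and 1. The reversals were those of Gjb6 in OL libraries on dpi 42, 1.48 without naive pool 3 and 1.41 without OL naive pool 3, in a range of -0.66 to 1.41 without single libraries. The settings that leave out naive pool 3, dpi 2 pool 2 (Y-linked counts) or the 5 OL libraries with over 10000 CPM of astrocyte markers were chosen after seeing the data. Without those 5, the number of the 5 genes called for OL enrichment went from 3 to 5 for naive and dpi 2. The added genes were Gja1 and Gjb6, whose highest OL values this setting leaves out. Counts that need OL libraries of dpi 42 are not given for this setting, since only pool 3 is left there. Without naive pool 3 the number went from 3 to 5 for naive. Without those 5 it went from 1 to 2 for OL dpi 10 against dpi 2 and from 1 to 4 for total RNA on dpi 2. It also went from 1 to 3 for total RNA dpi 10 against dpi 2 and from 0 to 4 for total RNA dpi 42 against dpi 2. For differential OL enrichment on dpi 2 it went from 1 to 2. OL dpi 42 against dpi 10 went from 1 to 0 without the 2 libraries with conflicting labels, and with only the groups compared. With only the groups compared, the count was 1 in place of 2 for the OL change on dpi 2, 4, 2, 3, 1 and 2 in place of 1, 1, 1, 0 and 0 for total RNA on dpi 2, dpi 10, dpi 10 against dpi 2, dpi 42 against dpi 10 and dpi 42 against dpi 2, and 0 and 1 in place of 1 and 2 for differential OL enrichment on dpi 2 and dpi 42. Library sizes alone gave 2, 0, 1 and 2 for total RNA on dpi 2, dpi 10 and dpi 42 against dpi 2 and for differential OL enrichment on dpi 2. A total RNA reference kept 1 for differential OL enrichment on dpi 2, with Panx1 lost (1.09) and Gjc3 gained (-0.59). It gave 2 and 0 for total RNA on dpi 2 and dpi 10 and 2 for differential OL enrichment on dpi 10. DESeq2 size factors gave 0 for total RNA on dpi 10 and 1 for dpi 42 against dpi 2, and the DESeq2 test and edgeR's own filter gave 1 there too. Differential OL enrichment had 0 genes called on dpi 2 without dpi 2 pool 2 and 1 on dpi 42 without naive pool 3 or without the conflicting libraries. Leaving out 1 library gave 3 to 5, 3 to 5, 3 to 5 and 3 genes for OL enrichment in naive tissue and on dpi 2, 10 and 42, 2 to 4, 2 and 2 to 3 for the OL change, 1, 0 to 1 and 0 to 1 for OL dpi 10 against 2, 42 against 10 and 42 against 2, 1 to 2, 0 to 1 and 1 for total RNA, 1, 0 and 0 between its times, and 0 to 2, 0 to 1 and 0 to 2 for differential OL enrichment. The replicate block changed no call of the 5 genes (3, 3, 4 and 3 for OL enrichment), and neither did its removal from differential OL enrichment. Library sizes alone moved the median of all genes by -0.57 to -0.50 for OL enrichment and by 0.11 to 0.20 for total RNA after SCI, and a total RNA reference moved differential OL enrichment by -0.23 to -0.22. Panx1 in naive OL libraries rests on 20 to 44 counts, and Gja1 and Gjb6 are limited by the spread between OL libraries and not by depth.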
